A study of Homo sapiens with 2 samples.

Results

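The genes described here make cholesterol and fatty acids or control the SREBP transcription factors that switch those pathways on. They are 35 genes taken by symbol from the 58302 listed: 18 enzymes of sterol synthesis, a sterol carrier, 5 genes of the SREBP system, 10 enzymes of fatty acid supply, synthesis, elongation and desaturation, and a phosphatidate phosphatase. RNA-seq was carried out on A549, a cell line from a human lung adenocarcinoma, grown in F12K medium with serum. The PGC-1α library is labelled as PGC-1α overexpression, PGC-1α being a coactivator of transcription whose gene is PPARGC1A, and the other library is the matching control. The construct, the clone and the time of expression are not stated in the labels. With 1 library for each condition, there is no replicate check and no p-value is given.

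SREBPs are made as membrane proteins of the endoplasmic reticulum, bound to the sterol sensor SCAP. When membranes hold enough sterol, INSIG proteins keep SCAP in place. When sterol runs low, SCAP carries SREBP to the Golgi, proteases release its soluble part, and this part enters the nucleus and activates lipid genes together with NF-Y and Sp1. SREBP2 is known mainly for sterol genes and SREBP1 mainly for fatty acid genes. In the lung, alveolar type II cells are known to use fatty acid synthesis for surfactant.

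PPARGC1A itself had 4654 counts in the PGC-1α library and 5 in the control library, so its level matched the labels. The libraries held 24334768 counts (PGC-1α) and 27125084 counts (control). Levels are in CPM, counts per 1000000 counts of a library after TMM scaling, which aligns the bulk of genes between libraries. Where levels of different genes are compared, the authors' FPKM is used, which also divides by gene length. Ratios are given as log2 of PGC-1α over control, with an exact 95% interval that covers counting error only. A gene counted as measured when it averaged 1 CPM or more, which was the case for 14154 genes and for all 35 lipid genes, whose smallest count in either library was 248. The 5 epithelial markers summed to 5249 CPM in the PGC-1α library and 5360 CPM in the control, with none at 0. KRT8 stood at 3899 CPM in the PGC-1α library and 3868 CPM in the control, while KRT19 and CDH1 had log2 ratios of -1.13 and -0.95. KRT18 had a log2 ratio of -0.09 (-0.11 to -0.07), and EPCAM went the other way, at 0.58 (0.17 to 0.99). The part of these markers in the lipid gene results was not tested. The 4 immune markers summed to 0.124 CPM in the PGC-1α library and 0.147 CPM in the control, with CD3E at 0 in both. The 3 endothelial markers summed to 0 CPM in the PGC-1α library and 0.0367 CPM in the control, with CDH5 and KDR at 0 in both. The 4 fibroblast markers summed to 2.07 CPM in the PGC-1α library and 1.80 CPM in the control, with none at 0.

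Most lipid synthesis genes were modestly lower in the PGC-1α library. Of the 35, 32 had a ratio under 1, or 91.4%, against 51.0% of all measured genes. For 30 of them, or 85.7%, the counting interval lay wholly under a ratio of 1, against 24.2% of all measured genes. Intervals narrow as counts rise, and this 24.2% takes in genes from 1 CPM up, so the contrast partly reflects depth. The same share among genes averaging 5 CPM or more was not computed. A difference was called when it reached 1.5-fold and the counting interval did not take in a ratio of 1. By this rule 5 genes were lower (14.3%), against a background of 3.92% of measured genes, and 1 was higher (2.86%), against 5.3%. Among genes averaging 5 CPM or more, as all 35 did, the background shares were 2.41% lower and 3.44% higher, and 51.7% had a ratio under 1. The 5 lower genes were FADS2, INSIG1, LSS, HSD17B7 and SCD, and the higher one was ACACB. None was 2-fold apart, against 1.16% of measured genes at least 2-fold lower and 1.75% at least 2-fold higher. The median log2 ratio of the 35 was -0.26, and that of all measured genes was -0.005.

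**Figure D1:**
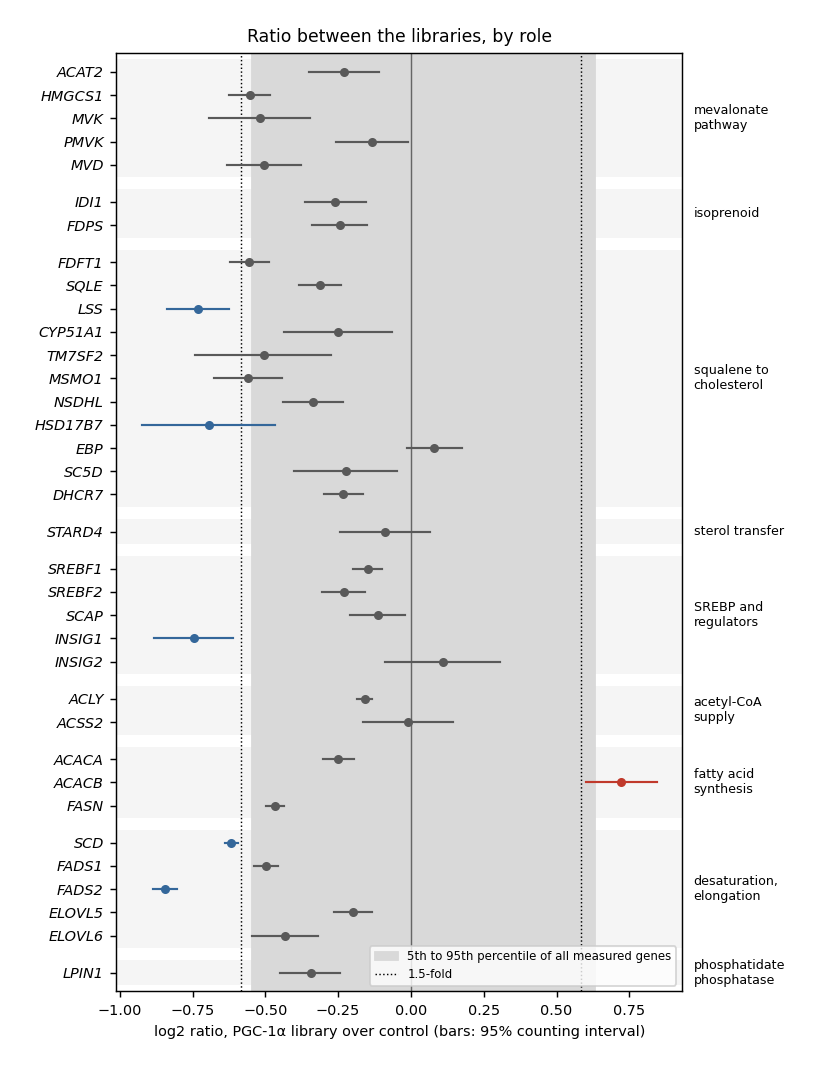
Log2 ratio (PGC-1α library over control) for each of the 35 genes, grouped by role, with bars for the 95% counting interval. Blue points are at least 1.5-fold lower and the red point at least 1.5-fold higher; the grey band runs from -0.54 to 0.63, the 5th to 95th percentile of all measured genes, and most points lie in its left part.

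Summed over all 35 genes, these transcripts took 0.510% of counts in the PGC-1α library and 0.685% in the control. The sums were 5125 CPM in the PGC-1α library and 6817 CPM in the control, a log2 ratio of -0.41 (-0.42 to -0.40). SCD alone made up a large part of this, and without it the sums were 4020 CPM in the PGC-1α library and 5122 CPM in the control, a log2 ratio of -0.35. In bulk RNA, fewer cells expressing a gene and less RNA per cell cannot be told apart.

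**Figure D2:**
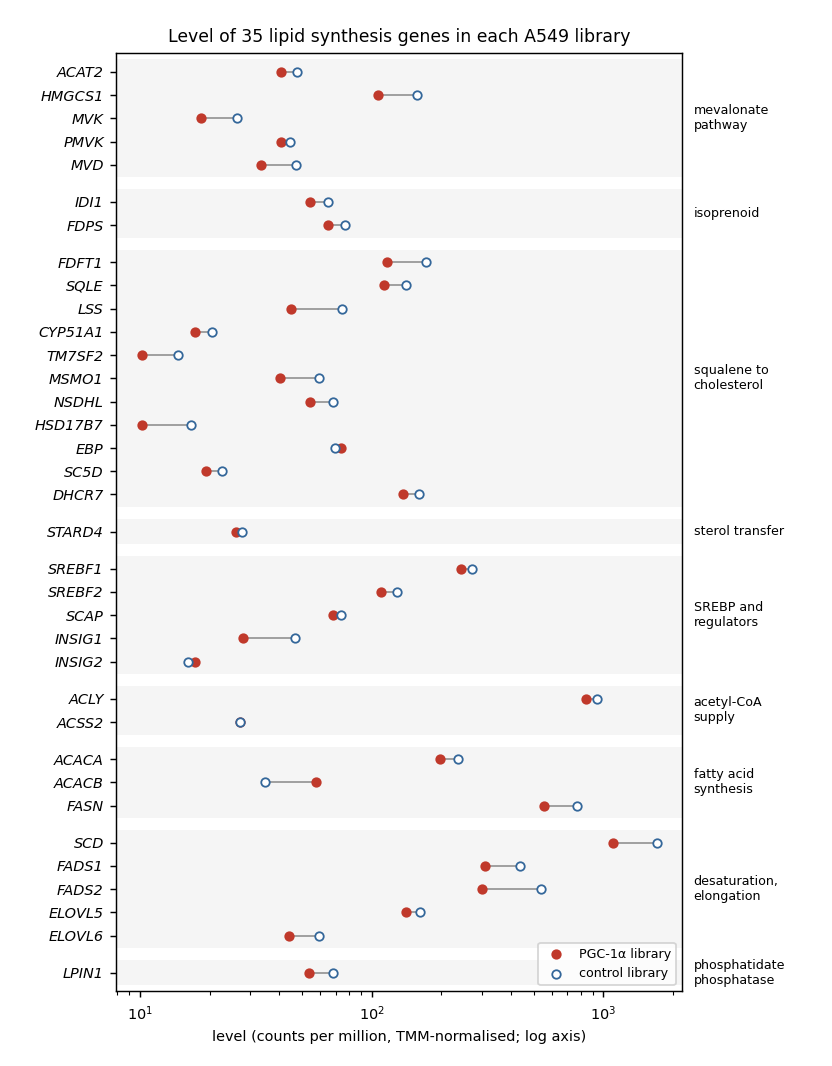
Level of each gene in CPM on a log axis, with filled red points for the PGC-1α library and open blue points for the control. The red point lies left of the blue one for 32 of 35 genes; EBP, INSIG2 and ACACB run the other way, and levels, not corrected for gene length, range from 10.2 CPM for HSD17B7 and TM7SF2 in the PGC-1α library to 1695 CPM for SCD in the control.

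The mevalonate pathway turns acetyl-CoA into the building block of all sterols and isoprenoids. All 5 of its listed genes had intervals under a ratio of 1, against 24.2% of all measured genes, which include genes with fewer counts and wider intervals. None was past 1.5-fold, against 3.92% of measured genes at least 1.5-fold lower. ACAT2, which joins acetyl-CoA units in the cytosol, had 985 counts in the PGC-1α library and 1302 in the control (40.7 CPM against 47.7 CPM). Its log2 ratio was -0.23 (-0.35 to -0.11). It overlaps TCP1, which has more counts, on the opposite strand and shares 397 of its 4299 exon bases with it; TCP1 had a log2 ratio of 0.003. HMGCS1, which makes HMG-CoA, had 2580 counts in the PGC-1α library and 4268 in the control. This corresponded to 107 CPM (PGC-1α) and 156.5 CPM (control) and to a log2 ratio of -0.55 (-0.63 to -0.48), close to but under 1.5-fold. MVK, the mevalonate kinase, had 445 counts in the PGC-1α library and 719 in the control, a log2 ratio of -0.52 (-0.69 to -0.35), and overlaps MMAB on the opposite strand, which stood at -0.41. PMVK, the kinase of the next step, differed little, with 980 counts in the PGC-1α library and 1211 in the control, a log2 ratio of -0.13 (-0.26 to -0.01). MVD, the decarboxylase that closes this stage, had 806 counts in the PGC-1α library and 1288 in the control, a log2 ratio of -0.50 (-0.63 to -0.38).

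The isoprenoid enzymes downstream had a median log2 ratio of -0.25, against -0.50 for the mevalonate genes. Of the mevalonate genes, ACAT2 and PMVK were lower by less than either isoprenoid enzyme. IDI1, the isomerase that readies isopentenyl units for joining, had 1310 counts in the PGC-1α library and 1767 in the control (54.1 CPM against 64.8 CPM), a log2 ratio of -0.26 (-0.36 to -0.16). FDPS, which joins these units into farnesyl diphosphate, had 1576 counts in the PGC-1α library and 2105 in the control (65.1 CPM against 77.2 CPM), a log2 ratio of -0.25 (-0.34 to -0.15). FDPS has 8 pseudogene copies in the files, whose summed counts of 10 (PGC-1α) and 4 (control) are a small fraction of its own.

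Of the 11 enzymes that lead from farnesyl diphosphate to cholesterol, 2 (18.2%) were at least 1.5-fold lower, against 3.92% of all measured genes. None was higher, against 5.3%, and 10 (90.9%) had ratios under 1, against 51.0%. FDFT1, squalene synthase and the first committed step to sterols, had 2832 counts in the PGC-1α library and 4688 in the control. Its level was 117 CPM against 172 CPM, a log2 ratio of -0.55 (-0.62 to -0.49). SQLE, the squalene epoxidase and a known slow step, was lower by less, with 114 CPM in the PGC-1α library and 141 CPM in the control, a log2 ratio of -0.31 (-0.38 to -0.24). LSS, which folds the epoxide into lanosterol, the first sterol (ENSG00000160285, chromosome 21, 46188141 to 46228824, minus strand), was the lowest in ratio of the whole sterol route. It had 1090 counts in the PGC-1α library and 2040 in the control, or 45.0 CPM against 74.8 CPM, a log2 ratio of -0.73 (-0.84 to -0.63).

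The enzymes that trim lanosterol varied among themselves. CYP51A1, the lanosterol demethylase, had 417 counts in the PGC-1α library and 559 in the control, a log2 ratio of -0.25 (-0.44 to -0.07). TM7SF2, a sterol reductase that shares a few exon bases with VPS51, a gene with more counts, had 248 counts in the PGC-1α library and 397 in the control, a log2 ratio of -0.51 (-0.74 to -0.27). LBR, a membrane protein of the nuclear envelope with the same reductase activity, stood at -0.16 (-0.24 to -0.07). MSMO1, which oxidises the C4 methyl groups, had 979 counts in the PGC-1α library and 1626 in the control, a log2 ratio of -0.56 (-0.68 to -0.44). NSDHL, the dehydrogenase that works with it, had 1312 counts in the PGC-1α library and 1867 in the control, a log2 ratio of -0.34. ERG28, a scaffold protein of this demethylation complex, had 747 counts in the PGC-1α library and 1098 in the control, a log2 ratio of -0.38 (-0.52 to -0.25). HSD17B7, the ketoreductase of that complex (ENSG00000132196, chromosome 1, 162790702 to 162812817, plus strand), had 248 counts in the PGC-1α library and 452 in the control, or 10.2 CPM against 16.6 CPM, and was at least 1.5-fold lower. Its log2 ratio was -0.69 (-0.92 to -0.47), so the interval also takes in ratios under 1.5-fold. Its near-identical copies had 43 counts in the PGC-1α library and 57 in the control, and with them summed the log2 ratio was -0.63. On the scale of FPKM plus 1 it was -0.54, under 1.5-fold.

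The last steps differed less. EBP, the isomerase that shifts a ring double bond, was the exception of the route, with 1780 counts in the PGC-1α library and 1897 in the control. Its levels were 73.5 CPM (PGC-1α) and 69.6 CPM (control), a log2 ratio of 0.08 (-0.01 to 0.17) whose interval includes 0. SC5D, a sterol desaturase, had 468 counts in the PGC-1α library and 616 in the control, a log2 ratio of -0.22 (-0.40 to -0.05). DHCR7, which makes cholesterol from 7-dehydrocholesterol, had 3299 counts in the PGC-1α library and 4365 in the control, or 136 CPM against 160 CPM, a log2 ratio of -0.23 (-0.30 to -0.17). LSS and EBP were the lowest and the highest in ratio of the 18 sterol synthesis enzymes and were paired after values were seen. The ratio of LSS to EBP counts, which needs no scaling between libraries, differed by -0.81 (-0.96 to -0.67) on the log2 scale. STARD4, a soluble carrier that moves cholesterol between membranes, had 628 counts in the PGC-1α library and 753 in the control (25.9 CPM against 27.6 CPM). At -0.09 (-0.24 to 0.06) a difference was not detectable at this depth.

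Within the SREBP system, INSIG1 stood apart from the other 4 genes. INSIG1, itself a well known SREBP target (ENSG00000186480, chromosome 7, 155297776 to 155310235, plus strand), had 675 counts in the PGC-1α library and 1275 in the control. This was 27.9 CPM against 46.8 CPM and a log2 ratio of -0.74 (-0.88 to -0.61). Only 2.53% of measured genes had a lower ratio. INSIG2, which retains SCAP in the same way but is known to respond little to SREBP, had 420 counts in the PGC-1α library and 439 in the control. Its levels were 17.4 CPM (PGC-1α) and 16.1 CPM (control) and its log2 ratio 0.11 (-0.09 to 0.30). Per length, INSIG1 was 1.74 times INSIG2 in the PGC-1α library and 3.14 times INSIG2 in the control, by FPKM. The change of that ratio was -0.85 (-1.09 to -0.61) on the log2 scale.

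The genes of the transcription factors themselves were lower by less than 1.5-fold, SREBF2 by close to the median log2 ratio of the 35 genes, -0.26. SREBF1, which encodes SREBP1, had 5908 counts in the PGC-1α library and 7382 in the control (244 CPM against 271 CPM), a log2 ratio of -0.15 (-0.20 to -0.10). It shares 556 of its 8030 exon bases with RAI1 on the opposite strand, and the strand setting is not known. RAI1 had 3116 counts in the PGC-1α library and 4158 in the control, a log2 ratio of -0.24. SREBF2, which encodes SREBP2, had 2659 counts in the PGC-1α library and 3518 in the control (110 CPM against 129 CPM), a log2 ratio of -0.23 (-0.30 to -0.16). SCAP had 1645 counts in the PGC-1α library and 2007 in the control (68.0 CPM against 73.6 CPM), a log2 ratio of -0.11 (-0.21 to -0.02). Per length, SREBF1 was the more abundant SREBP gene in both libraries, at 30.2 FPKM in the PGC-1α library and 33.9 FPKM in the control, where SREBF2 stood at 14.4 FPKM in the PGC-1α library and 17.2 FPKM in the control. The balance between them did not shift beyond counting error, with a change of 0.08 (-0.006 to 0.17). These are transcript levels, and cleavage of SREBP proteins was not measured.

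An intron of each SREBF gene is known to hold a miR-33 gene, and these miRNAs are known to lower cholesterol export. The pair is shown because they share their seed, bases 2 to 8, which is in capitals (RefSeq, GRCh38.p14).
hsa-miR-33b-5p: gUGCAUUGcuguugcauugc
hsa-miR-33a-5p: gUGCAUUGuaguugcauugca
The gene row of MIR33B, inside SREBF1, had 6 counts in the PGC-1α library and 5 in the control, and that of MIR33A, inside SREBF2, had 0 counts in both. A count of 0 allows up to 0.124 CPM in the PGC-1α library and 0.110 CPM in the control. Such counts come from fragments over the hairpin and do not measure the mature miRNAs.

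Upstream sequence is shown for SREBF2, for 4 of the 5 genes that were at least 1.5-fold lower, for MSMO1 and for ACACB, the gene that was higher. Each stretch comes from RefSeq (GRCh38.p14), reads 5′ to 3′ along the gene's strand, lies within 250 bases before the gene's most upstream listed start, and leaves out bases that GENCODE release 29 annotates as UTR. Capitals mark, on either strand, the NF-Y box CCAAT, the E-box CACGTG and CACCCCA, the core of the sterol regulatory element that SREBPs bind. FADS2, the lower gene not shown, has a window without any of these motifs. MSMO1, at a log2 ratio of -0.56, was not called. The stretches are thus a selection and do not show whether a motif goes with a lower or higher ratio.
SREBF2, chr22:41832855-41833078, plus strand: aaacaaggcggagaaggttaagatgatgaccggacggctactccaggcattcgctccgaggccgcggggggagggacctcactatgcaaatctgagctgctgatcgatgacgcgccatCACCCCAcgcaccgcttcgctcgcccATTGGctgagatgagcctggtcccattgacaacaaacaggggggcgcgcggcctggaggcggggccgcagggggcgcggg
INSIG1, chr7:155297628-155297775, plus strand: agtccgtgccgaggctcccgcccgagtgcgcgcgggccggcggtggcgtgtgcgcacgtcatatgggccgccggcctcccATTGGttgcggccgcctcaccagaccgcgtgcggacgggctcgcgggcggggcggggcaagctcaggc
LSS, chr21:46228825-46229024, minus strand: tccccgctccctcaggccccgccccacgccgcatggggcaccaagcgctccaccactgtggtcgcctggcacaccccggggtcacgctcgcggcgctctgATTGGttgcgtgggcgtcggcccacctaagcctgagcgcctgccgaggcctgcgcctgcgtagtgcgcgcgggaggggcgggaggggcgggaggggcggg
HSD17B7, chr1:162790452-162790701, plus strand: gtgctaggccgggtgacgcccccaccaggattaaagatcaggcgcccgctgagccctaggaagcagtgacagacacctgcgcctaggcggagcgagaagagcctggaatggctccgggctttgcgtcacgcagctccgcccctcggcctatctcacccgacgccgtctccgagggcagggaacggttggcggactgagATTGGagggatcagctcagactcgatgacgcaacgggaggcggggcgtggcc
SCD, chr10:100346983-100347123, plus strand: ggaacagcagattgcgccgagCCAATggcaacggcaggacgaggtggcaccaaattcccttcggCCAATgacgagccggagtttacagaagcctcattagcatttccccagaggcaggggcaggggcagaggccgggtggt
MSMO1, chr4:165327419-165327622, plus strand: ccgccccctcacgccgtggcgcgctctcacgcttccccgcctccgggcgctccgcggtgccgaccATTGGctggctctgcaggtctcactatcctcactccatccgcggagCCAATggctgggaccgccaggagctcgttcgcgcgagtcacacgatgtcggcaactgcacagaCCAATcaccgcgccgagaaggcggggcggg
ACACB, chr12:109116337-109116586, plus strand: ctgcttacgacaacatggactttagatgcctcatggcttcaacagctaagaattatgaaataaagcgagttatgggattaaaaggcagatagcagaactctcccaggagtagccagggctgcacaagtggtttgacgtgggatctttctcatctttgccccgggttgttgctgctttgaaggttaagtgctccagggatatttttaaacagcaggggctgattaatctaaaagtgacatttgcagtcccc
The sterol element core of SREBF2 begins 132 bases before the start, with an NF-Y box at 106. INSIG1 has an NF-Y box at 170 and, outside the stretch shown, an E-box at 55. The ACACB stretch holds none of these motifs, although its other listed start has an NF-Y box.

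Motif shares were counted per gene over all listed windows of 250 bases, for the 31 lipid genes and the 10069 measured genes with a window. CCAAT occurred in 22 of 31 lipid genes, or 71.0%, against 41.2% of measured genes, and in 4 of the 5 lower genes, FADS2 being the one without. GGGCGG, the GC box bound by Sp1, occurred in 29 of 31, or 93.5%, against 75.2%. The core CACCCCA occurred in ACSS2, EBP, MVD, MVK and SREBF2, 5 of 31 or 16.1% against 9.03%, and in none of the 5 lower genes. CACGTG occurred in 4 of 31, or 12.9%, against 11.3%. AAGGTCA, bound by the ERR receptors with which PGC-1α is known to work, occurred in none of the 31, against 3.26% of measured genes. A match is a description of letters, and a window without one says nothing of binding elsewhere.

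On the fatty acid side, the genes of acetyl-CoA supply differed little, while FASN and the desaturases were lower by more. ACLY, which cuts citrate to acetyl-CoA, had the highest FPKM of the 35 genes after SCD, at 160.5 FPKM in the PGC-1α library and 182 FPKM in the control. It had 20403 counts in the PGC-1α library and 25674 in the control. This was 843 CPM against 941 CPM, a log2 ratio of -0.16 (-0.19 to -0.13). ACSS2, which makes acetyl-CoA from acetate, had 652 counts in the PGC-1α library and 740 in the control, or 26.9 CPM against 27.1 CPM. Its log2 ratio of -0.01 (-0.16 to 0.14) showed no detectable difference. By FPKM, ACLY was 32.3 times ACSS2 in the PGC-1α library and 35.8 times ACSS2 in the control. The change of that ratio, at -0.15 (-0.31 to 0.008) on the log2 scale, was within counting error.

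The acetyl-CoA carboxylases went opposite ways. ACACA, the cytosolic form that makes malonyl-CoA for synthesis, had 4783 counts in the PGC-1α library and 6406 in the control, or 198 CPM against 235 CPM, a log2 ratio of -0.25 (-0.30 to -0.20). ACACB, the form at the outer mitochondrial membrane whose malonyl-CoA is known to hold back fatty acid entry into mitochondria (ENSG00000076555, chromosome 12, 109116595 to 109268226, plus strand), had 1387 counts in the PGC-1α library and 947 in the control. This was 57.3 CPM against 34.7 CPM and a log2 ratio of 0.72 (0.60 to 0.84), which made it the only gene of the 35 at least 1.5-fold higher. On the scale of FPKM plus 1 its log2 ratio was 0.53, under 1.5-fold. Per length ACACB stayed the minor form, at 0.260 times ACACA in the PGC-1α library and 0.133 times ACACA in the control by FPKM. The change of that ratio was 0.97 (0.84 to 1.10) on the log2 scale. FASN, the fatty acid synthase, had 13482 counts in the PGC-1α library and 20978 in the control, or 557 CPM against 769 CPM, a log2 ratio of -0.47 (-0.50 to -0.43).

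All 5 desaturases and elongases had intervals under a ratio of 1, against 24.2% of all measured genes, which include genes with fewer counts and wider intervals. SCD, which puts the first double bond into stearate and palmitate (ENSG00000099194, chromosome 10, 100347124 to 100364834, plus strand), had 26749 counts in the PGC-1α library and 46235 in the control. Its level was 1105 CPM against 1695 CPM and its log2 ratio -0.62 (-0.64 to -0.60). At 205 FPKM in the PGC-1α library and 318 FPKM in the control it had the highest FPKM of the 35 genes, and it ranked 158 among measured genes in the PGC-1α library and 90 in the control. FADS2, the desaturase that starts the route to long polyunsaturated fatty acids (ENSG00000134824, chromosome 11, 61792980 to 61867354, plus strand), had the lowest ratio of all 35, with 7267 counts in the PGC-1α library and 14710 in the control. This was 300.2 CPM against 539 CPM, a log2 ratio of -0.85 (-0.89 to -0.80), and 1.87% of measured genes had a lower one.

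FADS1, the desaturase of a later step, lies within the bounds of FADS2. It had 7500 counts in the PGC-1α library and 11940 in the control, a log2 ratio of -0.50 (-0.54 to -0.46). FADS2 and FADS1 share 490 exon bases on opposite strands, so part of their counts cannot be assigned without a strand setting. FADS2 also shares 49 of its 11026 exon bases with FEN1 on the same strand, which had a log2 ratio of -0.03. Per length, FADS2 was 0.899 times FADS1 in the PGC-1α library and 1.14 times FADS1 in the control, a change of -0.35 (-0.40 to -0.29). ELOVL5, which lengthens polyunsaturated chains, had 3407 counts in the PGC-1α library and 4409 in the control, a log2 ratio of -0.20 (-0.26 to -0.13). ELOVL6, which lengthens palmitate, had 1069 counts in the PGC-1α library and 1625 in the control (44.2 CPM against 59.6 CPM), a log2 ratio of -0.43 (-0.54 to -0.32). LPIN1, a phosphatidate phosphatase of glycerolipid synthesis known also as a nuclear coregulator, had 1301 counts in the PGC-1α library and 1862 in the control (53.8 CPM against 68.3 CPM), a log2 ratio of -0.34 (-0.45 to -0.24).

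Related genes outside the 35 did not all follow. SCD5, a human paralogue of SCD, had 394 counts in the PGC-1α library and 639 in the control, a log2 ratio of -0.52 (-0.71 to -0.34), and the ratio of SCD to SCD5 did not differ beyond counting error, with a change of -0.09 (-0.28 to 0.09). ELOVL7, an elongase of saturated chains, was higher, with 947 counts in the PGC-1α library and 489 in the control, a log2 ratio of 1.12 (0.97 to 1.29). By FPKM, ELOVL6 was 0.708 times ELOVL7 in the PGC-1α library and 2.08 times ELOVL7 in the control, a change of -1.56 (-1.75 to -1.36). LPIN3 stood at 0.44 (0.29 to 0.60), and LPIN1 was 0.660 times LPIN3 in the PGC-1α library and 1.14 times LPIN3 in the control by FPKM, a change of -0.79 (-0.97 to -0.60). LPIN2 was lower than in the control, at -0.20 (-0.34 to -0.05), and the change in the ratio of LPIN1 to LPIN2, at -0.15 (-0.33 to 0.03), was within counting error. FADS3, a paralogue of FADS2, stood at -0.34 (-0.49 to -0.20), and the ratio of FADS2 to FADS3 changed by -0.50 (-0.65 to -0.35). In all, 11 such pairs were compared, and they were chosen after values were seen.

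**Figure D3:**
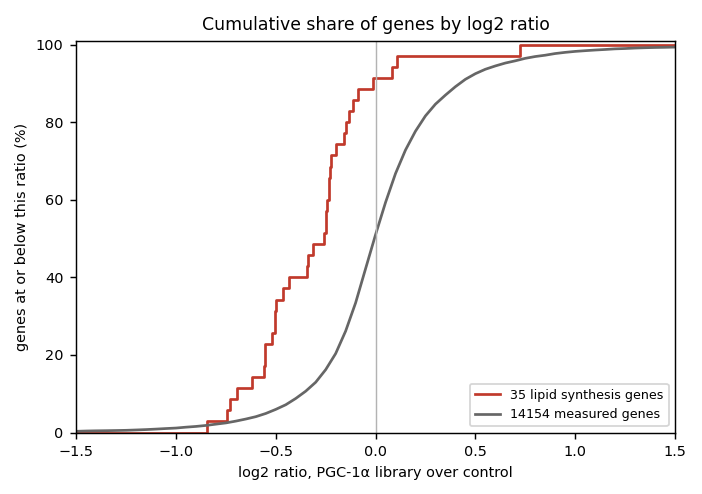
Percentage of genes at or below each log2 ratio (PGC-1α library over control), for the 35 lipid synthesis genes (red) and all 14154 measured genes (grey). The medians are -0.26 and -0.005, and the red line lies above the grey one at log2 ratios from -0.7 up to ACACB, the highest of the 35, where it reaches 100%.

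Genes around the pathway had medians closer to that of all measured genes, but ratios under 1 were common in some lists. Their share was 84.6% for cholesterol transfer, esterification and hydrolysis and 72.2% for SREBP processing, against 51.0% of all measured genes. In the other lists it was 50% to 66.7%. Intervals wholly under a ratio of 1 made up 12.5% to 66.7% of each list, against 24.2%, a share that depends on depth. Of all measured genes, 3.92% were called lower and 5.3% higher. Of 18 genes of SREBP processing and sterol sensing, none was 1.5-fold apart and the median log2 ratio was -0.08. The site-1 protease gene MBTPS1 stood at -0.28 and SEC24D, a coat protein of vesicles that leave the endoplasmic reticulum, at -0.37. Of 11 genes of the isoprenoid branches, none was lower and 1 was higher, and their median was -0.10. The higher one was PDSS1, which makes the side chain of coenzyme Q, with 683 counts in the PGC-1α library and 418 in the control, a log2 ratio of 0.88 (0.70 to 1.06). GGPS1, which makes geranylgeranyl diphosphate, stood at -0.35 and FNTA, a subunit of protein prenyltransferases, at 0.28.

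LXR receptors and their targets act when oxysterols build up. Of 8 such genes none was lower and 1 (12.5%) was higher, against 3.92% and 5.3% of all measured genes. Their median was 0.004. ABCG1, a cholesterol exporter, had 60 counts in the PGC-1α library and 34 in the control, a log2 ratio of 0.98 (0.36 to 1.64). Its levels were low, at 2.48 CPM (PGC-1α) and 1.25 CPM (control), and the interval also takes in ratios under 1.5-fold. RXRA, the partner receptor, stood at -0.21, and ABCA1, the other main exporter, had 1081 counts in the PGC-1α library and 1191 in the control, a log2 ratio of 0.03. Of 16 genes of cholesterol transfer, esterification and hydrolysis, 13 were measured and none was 1.5-fold apart. Their median was -0.07, with the lysosomal lipase gene LIPA at -0.40, GRAMD1B, a sterol carrier at membrane contacts, at -0.36 and the lysosomal exporter gene NPC1 at -0.28.

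Among 21 other fatty acid synthesis genes, 19 were measured, with a median of -0.13. ELOVL7 was higher (5.26%) and none was lower, against 5.3% and 3.92% of all measured genes. MECR, an enzyme of the separate mitochondrial fatty acid synthesis, stood at 0.46 (0.26 to 0.66), and ME1, which supplies NADPH, at -0.37 (-0.44 to -0.29). Of 16 glycerolipid genes none was 1.5-fold apart, and the median was 0.009, with AGPAT4 at -0.55, PNPLA3 at -0.52 and LPIN3 at 0.44. The 3 further sterol synthesis genes, ERG28, LBR and FAXDC2, were all under 1.5-fold.

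**Figure D4:**
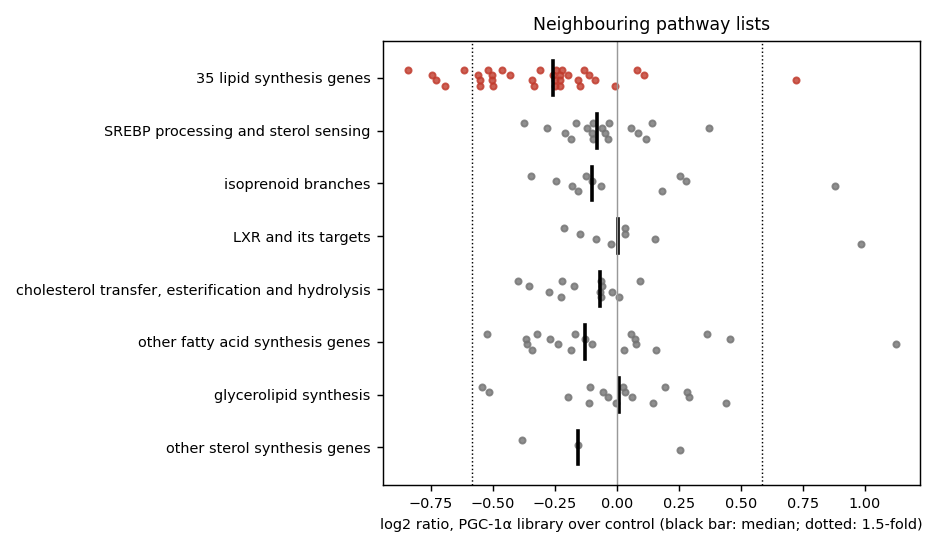
Log2 ratio (PGC-1α library over control) for each measured gene (points) and the median (black bar) of the 35 lipid synthesis genes and 7 neighbouring lists, with dotted lines at 1.5-fold. The 35 genes have a median of -0.26, and the medians of the 7 lists lie between -0.16 and 0.009.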

How the data were processed

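The data were gene tables from RNA-seq of 2 A549 libraries. The deposited counts were whole numbers per gene, and the deposited FPKM values were the authors' rescaling of them: in each library all genes above 0 gave a single library size, within a relative tolerance of 1e-06, equal to that from DESeq2 size factors. Per the submitters' processing notes, the tools were TopHat2 2.0.9, Bowtie2 2.0.6, Cuffdiff 2.1.1 and Cufflinks 2.1.1, with no role stated. For the counts, the program, strand setting, annotation and build are not given in the sources used. For 33 of the 35 genes, and 97.6% of all shared identifiers, gene bounds were identical to GENCODE release 29 (GRCh38).

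Log2 ratios used counts plus 0.5 and TMM-normalised library sizes (factors 0.995 for the PGC-1α library and 1.01 for the control, edgeR 4.0.16, R 4.3.3). Intervals are Clopper-Pearson intervals of the split of the counts, or exact conditional intervals for pairs of genes (scipy 1.17.1). Since reads carry no molecular identifiers, these and the limits for a count of 0, taken as 3 counts, cover counting error only. With 1 library per group there are no residual degrees of freedom, so edgeR's quasi-likelihood test could not be run. The code for intervals and calls was run on simulated counts that held counting error only, the error these intervals assume. Differences between cultures were not simulated, so that run says nothing of them. Exon overlaps used GENCODE release 29. Alternatives were DESeq2 1.42.0 size factors, library totals, other filters and thresholds, FPKM with pseudocounts, and leaving out genes overlapped by one at least as abundant.

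The 35 genes and all lists were chosen with earlier results of these data known. Every one of the 35 was described by role. Of each neighbouring list, up to 3 genes with the highest absolute ratio whose interval excludes 0, and all called genes, were named. ABCA1, ME1, FAXDC2, FADS3 and LPIN2 were named outside this rule after values were seen. Some genes of these pathways are not analysed here.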

Additional observations from a re-analysis of the deposited data

How the results depend on the processing

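With 1 library per group, no replicate could be left out, and no paired analysis was possible because each group held a single library and the labels give no shared replicate numbers. The count of 5 lower genes and 1 higher gene was the same with DESeq2 size factors, library totals and FPKM plus 0.1. FPKM rescales the same counts by the DESeq2 library sizes, so it is not an independent setting. With no low-count filter or a mean of at least 5 CPM the count could not differ, since all 35 genes averaged 5 CPM or more. Nor could it differ without the 4 genes that overlap a gene at least as abundant, since none of the 4 was called. With FPKM plus 1, which shrinks the ratios of low genes by construction, the counts were 4 lower and 0 higher, against 1.52% and 1.94% of measured genes, since HSD17B7 stood at -0.54 and ACACB at 0.53. With a 2-fold threshold the counts were 0 lower and 0 higher, against 1.16% and 1.75% of measured genes. The median log2 ratio of the 35 genes ranged from -0.28 to -0.25, and 32 of 35 ratios were under 1 under every alternative that kept all 35. No scaling moved the median of all genes by more than 0.02. Differences between cultures, which set the error of each ratio, could not be estimated.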
